A study of Mus musculus with 14 samples.

Results

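Zscan4b, Zscan4c, Zscan4d, Zscan4e, Zscan4f, Tcstv1, Tcstv3 and Zfp352 are mouse genes whose RNA marks the 2-cell embryo and the few embryonic stem (ES) cells in a culture that resemble it. These 8 of the 23298 genes measured were chosen by name, after an earlier look at the same values had shown genes of this kind to be unevenly high between lines and highest in 1 XX line. Their levels in the lines from which they were chosen are therefore given as a description, with no test, and the same holds for other 2-cell genes wherever those lines enter. The samples were 14 undifferentiated mouse ES cell lines of 5 groups. BC lines came from embryos of a C57BL/6J mother and a CAST/EiJ father, and there were 3 BC XX, 3 BC XY and 2 BC XO lines. CB lines came from the reciprocal cross, with a CAST/EiJ mother and a C57BL/6J father, and there were 3 CB XX and 3 CB XY lines. Each line was derived from its own blastocyst, carried no engineered allele, and was kept with LIF on inactivated mouse embryonic fibroblast feeders, most of which were removed before RNA was taken. The study compared lines by their sex chromosome complement. Values are scaled reads, the number of reads of a gene after the authors' scaling to 1 depth for all lines.

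In mouse embryos the zygotic genome is switched on mainly at the 2-cell stage, when Zscan4 genes, Tcstv genes, Zfp352 and many recently duplicated genes and retrotransposons are transcribed for a short time. In ES cell cultures a small, changing fraction of cells turns the same program on and off again. The transcription factor Dux is known to switch the program on, and chromatin repressors such as Kdm1a, Trim28 and non-canonical Polycomb complexes are known to hold it down. Zscan4 proteins carry a SCAN domain and zinc fingers and are known for lengthening telomeres in ES cells by recombination. In bulk RNA, more cells in the state and more RNA per such cell cannot be told apart.

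The lines held the markers of ES cells. The 10 markers summed to 94383 to 177707 scaled reads in every line, with Pou5f1 at 10830 to 29386 and Nanog at 4853 to 12130. The value of 1 read was read from the step between the lowest values, and by that measure the lines held 11904414 to 69646229 reads, so that 3 reads were worth 1.22 to 7.37 scaled reads. Uty, a gene of the Y chromosome, stood at 2088, 1529 and 945 scaled reads in BC XY 1 to 3 and at 1149 in CB XY 1, but at 19.6 and 45.4 in the libraries labelled CB XY 2 and 3. The last pair of values lay within the 12.8 to 195 of the XX lines and near the 15.2 and 30.6 of the XO lines. The lines labelled CB XY 2 and 3 thus went against that label, and most results that rest on them are also given without them. The CB XX lines are numbered by their order in the table.

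The 5 Zscan4 genes form a cluster on chromosome 7 (mm9). Zscan4b lies at chr7:11486098-11490399 on the minus strand, Zscan4c at chr7:11591071-11595896 on the plus strand, Zscan4d at chr7:11746992-11751497 on the minus strand, Zscan4e at chr7:11891727-11896031 on the minus strand and Zscan4f at chr7:11983264-11988090 on the plus strand. The cluster spans 501993 bases, and each copy has 4 exons. Zfp352, a gene for a zinc finger protein, lies apart at chr4:89885511-89892393 on the plus strand and has 2 exons.

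The coding sequences of the 5 copies were 96.6 to 99.7% identical over the 10 pairs. Zscan4c and Zscan4f differed at 6 coding bases and were 99.6% identical, and Zscan4b and Zscan4e differed at 4. The stretch with the most differences shows how little there is to tell the copies apart. It covers coding bases 650 to 724, counted from the start codon, is written 5′ to 3′ from the mm9 genome, and has the 9 columns that vary between copies in capitals.
Zscan4b: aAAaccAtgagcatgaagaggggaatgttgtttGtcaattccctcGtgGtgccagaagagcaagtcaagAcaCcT
Zscan4c: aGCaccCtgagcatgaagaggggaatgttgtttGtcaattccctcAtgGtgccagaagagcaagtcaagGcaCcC
Zscan4d: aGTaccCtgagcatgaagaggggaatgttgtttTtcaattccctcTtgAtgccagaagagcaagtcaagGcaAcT
Zscan4e: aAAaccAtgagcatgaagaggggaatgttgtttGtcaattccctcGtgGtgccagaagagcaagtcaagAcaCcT
Zscan4f: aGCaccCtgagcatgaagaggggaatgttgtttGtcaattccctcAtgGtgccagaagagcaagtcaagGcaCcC
Even here Zscan4b had the same letters as Zscan4e, and Zscan4c the same as Zscan4f, so that 3 sequences stand for 5 genes.

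The reads were 50 bases long. Of all 50-base windows in the exons of Zfp352, 91% occurred once in the mm9 genome. The share was 50.5% for Zscan4d, 15.5% for Zscan4c, 7.23% for Zscan4b, 7.17% for Zscan4e and 2.4% for Zscan4f. Most windows of Zscan4b, Zscan4c, Zscan4e and Zscan4f were also found in another of the 5 genes, in 77.4 to 92.8% of cases. How reads with several places in the genome were counted is not given in the sources used here. Levels of single Zscan4 copies are therefore uncertain, apart from Zscan4d in part, and their sum is given beside them, although reads of copies outside the 5 genes can enter that sum too.

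**Figure D1:**
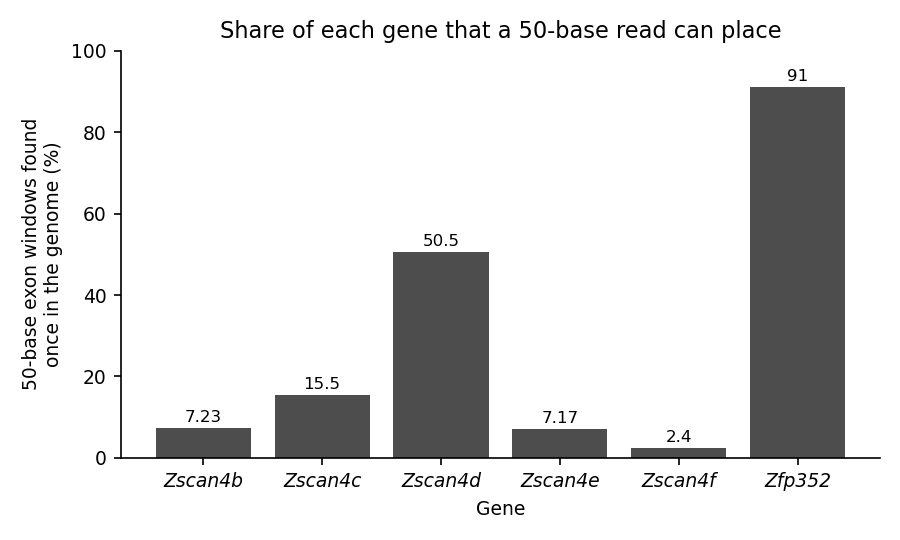
Bars give the percentage of 50-base exon windows that occurred once in the mm9 genome for the 6 genes with reads (y axis from 0 to 100%). Zfp352 reached 91% and Zscan4d 50.5%, while the other 4 Zscan4 genes lay at 15.5% or lower.

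Promoters were read from the RefSeq table, which uses the build GRCm38.p6 and held 5 of the 8 genes. For the 4 Zscan4 genes in it, the stretch of 216 bases that all 4 share before the start of the gene is shown because it was nearly as alike as the coding part, with 1 to 11 differences over the 6 pairs and an identity of 94.9 to 99.5%. Capitals mark TATAAA, the letters of a TATA box. The stretches are Zscan4b at chr7:10905051-10905266 on the minus strand, Zscan4c at chr7:11005506-11005721 on the plus strand, Zscan4d at chr7:11166183-11166398 on the minus strand and Zscan4f at chr7:11397699-11397914 on the plus strand.
Zscan4b: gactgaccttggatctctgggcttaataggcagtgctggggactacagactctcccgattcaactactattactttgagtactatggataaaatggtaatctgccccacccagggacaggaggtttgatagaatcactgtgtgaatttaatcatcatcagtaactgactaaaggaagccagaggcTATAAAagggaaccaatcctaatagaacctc
Zscan4c: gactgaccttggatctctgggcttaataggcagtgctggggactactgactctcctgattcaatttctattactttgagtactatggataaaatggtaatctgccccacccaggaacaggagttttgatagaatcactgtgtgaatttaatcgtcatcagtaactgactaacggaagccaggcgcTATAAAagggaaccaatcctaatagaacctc
Zscan4d: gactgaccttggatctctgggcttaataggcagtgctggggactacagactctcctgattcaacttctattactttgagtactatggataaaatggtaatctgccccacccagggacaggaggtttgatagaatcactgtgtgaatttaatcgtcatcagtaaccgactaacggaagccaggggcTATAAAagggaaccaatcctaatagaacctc
Zscan4f: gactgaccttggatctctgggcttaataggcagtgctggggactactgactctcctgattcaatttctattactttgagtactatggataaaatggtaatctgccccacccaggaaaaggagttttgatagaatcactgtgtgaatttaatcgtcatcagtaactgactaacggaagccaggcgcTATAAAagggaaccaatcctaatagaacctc
TATAAA was searched on both strands in the 250 bases before the start of each gene and was found in 12.4% of 32851 promoters. In Zscan4b and Zscan4f it began 31 bases before the start, and in Zscan4c and Zscan4d 54 and 65 bases before it. The letters TGATTNAAT, part of the motif known for Dux, were found in the promoters of Zscan4b, Zscan4c and Zscan4f and in 0.658% of all promoters. They were in neither the Zscan4d nor the Zfp352 window.

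The promoter of Zfp352, at chr4:90218570-90218819 on the plus strand, was of another kind: a run of short repeats. It is shown for that repeat, and capitals mark each TAATCC.
Zfp352: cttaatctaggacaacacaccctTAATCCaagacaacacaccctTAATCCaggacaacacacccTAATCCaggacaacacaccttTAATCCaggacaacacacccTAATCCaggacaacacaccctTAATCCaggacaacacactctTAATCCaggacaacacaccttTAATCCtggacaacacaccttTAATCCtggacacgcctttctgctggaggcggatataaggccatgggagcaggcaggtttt
The 6 letters occur 9 times on the plus strand, and the copies of the repeat unit follow each other every 20 or 21 bases. TAATCC was found on either strand in 6.25% of promoters. It occurred 5 or more times in 1 of the 32851, that of Zfp352. All motifs were picked after the sequences had been seen, and a match describes the letters only.

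Zscan4c, one of the copies most used as a mark of the 2-cell-like state, had 49.4 scaled reads in BC XX 1, 14.7 in BC XX 2 and 9.82 in BC XX 3. These rest on 83, 36 and 10 reads. In the BC XY lines it was listed at 0, 0 and 4.02, in the BC XO lines at 0.798 and 0, in the CB XX lines at 0, 3.66 and 4.44, and in the CB XY lines at 0, 0 and 1.30. The 3 BC XX lines were the 3 highest of the 14, and BC XX 1 stood 3.37-fold above the next line. Among the other 11 lines, 6 were listed at 0.

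Zscan4d, the copy that 50-base reads can place best, had 43.4 scaled reads in BC XX 1, 8.55 in BC XX 2 and 3.93 in BC XX 3. It was listed at 0, 0 and 2.68 in the BC XY lines, 0.798 and 0.711 in the BC XO lines, 0, 2.44 and 2.67 in the CB XX lines and 0, 0 and 1.30 in the CB XY lines. BC XX 1 again stood out, 5.08-fold above the second line, the largest such ratio among the 6 genes with reads.

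Zscan4f had 39.9, 8.55 and 12.8 scaled reads in BC XX 1 to 3. It was listed at 0, 0 and 2.68 in the BC XY lines, at 0 in both BC XO lines, at 0, 0 and 2.67 in the CB XX lines and at 2.02, 0 and 1.30 in the CB XY lines. The BC XX lines held the 3 highest values here too, with BC XX 1 3.12-fold above BC XX 3.

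Zscan4b and Zscan4e gave far fewer reads. Zscan4b had 8.93, 2.85 and 0.982 scaled reads in BC XX 1 to 3, 1.42, 0 and 2.67 in the CB XX lines, and was listed at 0 in all BC XY, BC XO and CB XY lines. The only lines with Zscan4b reads were therefore 5 of the 6 XX lines. Zscan4e had 2.38, 1.63 and 2.95 scaled reads in the BC XX lines and was listed at 0 in the other 11. Zscan4e was the 1 gene of the cluster whose highest line was not BC XX 1 but BC XX 3, though the step from the second line was only 1.24-fold, on a few reads. Zscan4b was above 3 reads in 2 lines and Zscan4e in 2, so that their zeros elsewhere say only that the gene was not detectable at this depth.

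The sum of the 5 Zscan4 genes was 144, 36.2 and 30.5 scaled reads in BC XX 1 to 3. It was 0, 0 and 9.37 in the BC XY lines, 1.60 and 0.711 in the BC XO lines, 1.42, 6.09 and 12.4 in the CB XX lines, and 2.02, 0 and 3.89 in the CB XY lines. The 95% exact Poisson intervals, which cover counting error only, ran from 126 to 163 for BC XX 1, from 29.1 to 44.6 for BC XX 2 and from 20.7 to 43.2 for BC XX 3. The interval of BC XX 1 did not reach those of BC XX 2 and BC XX 3, which overlapped, and this describes the libraries and not a difference tested between lines. The next lines down were CB XX 3, with an interval of 6.80 to 20.9, and BC XY 3, with one of 5.12 to 15.7, and these 2 overlapped. The interval of CB XX 3 also overlapped that of BC XX 3, if only just. In 8 of the 14 lines the sum was at or below the worth of 3 reads.

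Zfp352 differed in kind from the Zscan4 genes, as reads of it were found in every line. It had 71.4, 15.1 and 13.8 scaled reads in BC XX 1 to 3, on 120, 37 and 14 reads. It had 18.7, 16.6 and 12 in the BC XY lines, 10.4 and 9.96 in the BC XO lines, 8.53, 18.3 and 9.77 in the CB XX lines and 16.2, 7.37 and 9.09 in the CB XY lines. BC XX 1 was 3.81-fold above the second line, which was BC XY 1, and the other 13 lines lay between 7.37 and 18.7 whatever their group. In descending order the group means were 33.4 ± 32.9 (SD, n = 3) for BC XX, 15.8 ± 3.42 (n = 3) for BC XY, 12.2 ± 5.31 (n = 3) for CB XX, 10.9 ± 4.66 (n = 3) for CB XY and 10.2 ± 0.289 (n = 2) for BC XO. The SD of BC XX was as large as its mean, and each group overlapped the next in this order. Between BC XY and BC XO, which are not next to each other, the lines did not overlap. In BC XX 2 and BC XX 3, where Zscan4c was at 14.7 and 9.82, Zfp352 lay within the range of the BC XY lines.

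Tcstv1 and Tcstv3, which share the 2-cell stage with Zscan4, were listed at 0 in all 14 lines. This includes BC XX 1, where every other gene of the group had reads, and a 0 in this table can also stand for a gene that was not counted.

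**Figure D2:**
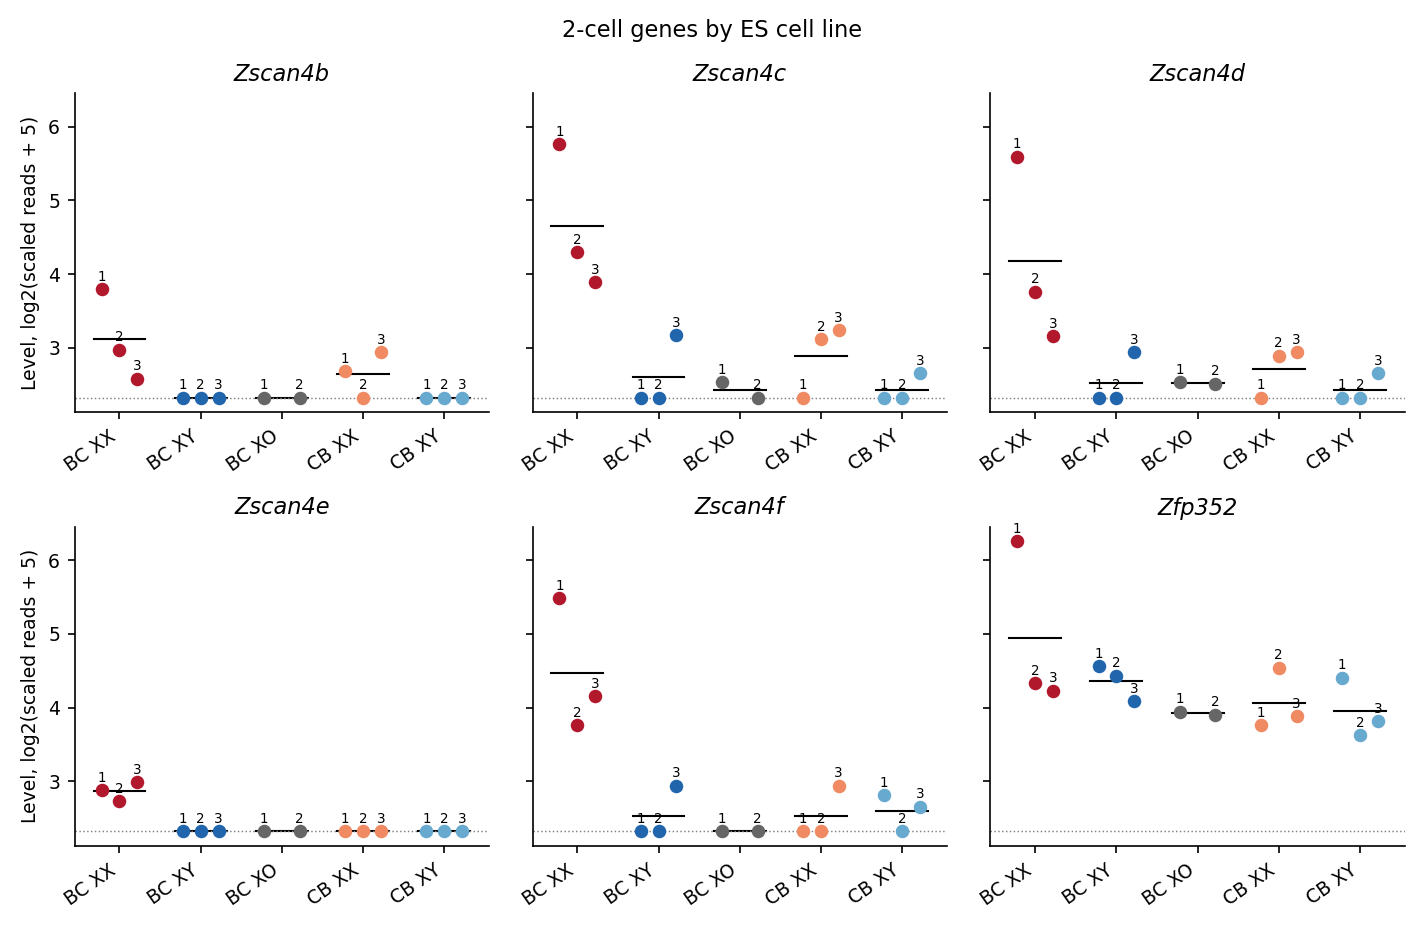
Each panel gives the level of 1 gene as log2(scaled reads + 5) on the y axis for the 14 lines, which are numbered points, by group on the x axis. Horizontal bars are group means and the dotted line is a value of 0. BC XX 1 is the highest point in 5 of the 6 panels, and in the Zfp352 panel the other 13 lines overlap.

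Levels can be compared between genes only per length. In BC XX 1, Zfp352 had 31.4 scaled reads per kilobase of exon, Zscan4d 21.8, Zscan4c 21.5, Zscan4f 17.5, Zscan4b 5.12 and Zscan4e 1.36. Zfp352 was the highest of the 6 in each of the 14 lines on this scale. However, 91% of its windows occurred once in the genome, against 2.4 to 50.5% for the Zscan4 genes. How reads with several places were counted is not known, so this order is uncertain.

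Groups other than BC XX were also compared. A gene was fitted when at least 2 lines reached 10 scaled reads, which Zscan4c, Zscan4f and Zfp352 did and the other 5 genes did not. Zscan4c and Zscan4f passed only through BC XX lines, and the spread in the fit over 14 lines includes those lines, so that their differences are given with SE and no p. Differences are on the log2(scaled reads + 5) scale, which understates changes at such low levels. Zfp352 was tested with limma's moderated test, adjusted over 16261 genes. Between CB XX and CB XY, Zscan4c differed by 0.46 (SE 0.43), Zscan4f by -0.07 (SE 0.39) and Zfp352 by 0.11 (SE 0.45, adjusted p = 0.926). Zfp352 did not pass the threshold, where 3.57% of all genes were called, and a fit on the CB XX and CB XY lines alone gave an adjusted p of 0.907. Without the lines labelled CB XY 2 and 3 the differences were 0.57, -0.28 and -0.34, and the last, that of Zfp352, had turned its direction (adjusted p = 0.875).

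Between BC XO and BC XY, lines of 1 cross that differ in having a Y chromosome, the differences were -0.18 for Zscan4c (SE 0.48), -0.21 for Zscan4f (SE 0.44) and -0.44 for Zfp352 (SE 0.51). The Zfp352 values did not overlap, with 12 to 18.7 scaled reads in BC XY and 9.96 to 10.4 in BC XO, but the difference did not pass limma's test, with an adjusted p of 0.999 in the fit over 14 lines and in that on these 5 lines alone. The background was 0.00615%, the Y-linked gene Zfy2 being the 1 gene called, while 242 genes had an unadjusted p under 0.05. Between CB XY and BC XY, the reciprocal crosses, the differences were -0.17 for Zscan4c, 0.07 for Zscan4f and -0.42 for Zfp352 (adjusted p = 0.665, and 0.542 on these lines alone), against a background of 0.640%. Without the lines labelled CB XY 2 and 3 they were -0.28, 0.28 and 0.04, the last with an adjusted p of 0.990.

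BC XX against BC XY is the contrast in which the genes were chosen. There the fitted differences were 2.05 for Zscan4c, 1.94 for Zscan4f and 0.57 for Zfp352, and nothing is read from them. In that contrast 5.70% of all genes were called, or 927, of which 726 were higher in BC XX (4.46%) and 201 lower.

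Other genes of the 2-cell program showed how far the pattern reached. A list of 43 such genes was drawn up from general knowledge of the program, with earlier results known, so that in BC XX, where 2-cell genes had been seen to be high, its values are a description too. The table held 38 of them, 8 were listed at 0 in every line and 15 entered the test. Several are recent duplicates, such as the Usp17l genes, the Tdpoz genes and Gm2022, Gm5662 and Gm8300, and their reads can be split between copies as those of Zscan4 can. In BC XX against BC XY, 8 of the 15 passed the threshold of the fit over all genes, all 8 higher in BC XX, where 4.46% of all genes were called higher, and nothing is read from that count. Zscan4a and Gm5662 reached 10 scaled reads in BC XX lines only. The median difference was 1.59 on the log2 scale against -0.04 for all genes tested. All 20 markers of feeder fibroblasts had a higher mean in BC XX in that contrast too, and 14 of them were called. The part of such cells in the contrast was not tested.

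Zscan4a, a further member of the Zscan4 family, had 69.6, 15.5 and 10.8 scaled reads in BC XX 1 to 3 and 0, 1.66 and 2.68 in the BC XY lines. The BC XX lines were all above the BC XY lines, by 2.19 on the log2 scale (SE 0.465). In the BC XO lines it stood at 0.798 and 2.13, in the CB XX lines at 1.42, 2.44 and 7.11 and in the CB XY lines at 0, 0 and 1.30, so that outside BC XX no line came up to the lowest BC XX value.

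Gm12794, which codes for a PRAME-like protein, had 178, 40.3 and 41.3 scaled reads in the BC XX lines and 1.25, 5.82 and 22.1 in the BC XY lines, a difference of 2.57 (SE 0.591). It had 3.99 and 2.13 in the BC XO lines, 5.69, 20.7 and 20.4 in the CB XX lines and 2.02, 2.46 and 7.79 in the CB XY lines. BC XY 3, CB XX 2 and CB XX 3 thus shared a level near 20. Gm13119, of the same family, had 112, 27.3 and 30.5 in the BC XX lines and 1.25, 0.831 and 15.4 in the BC XY lines, a difference of 2.50 (SE 0.579). Its CB XX lines stood at 4.26, 29.2 and 17.8 and its CB XY lines at 4.04, 2.46 and 2.60. The value of CB XX 1 and those of the CB XY lines were at or below the worth of 3 reads, so their order is not settled.

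Tmem92, a gene for a membrane protein, had 108, 19.1 and 21.6 scaled reads in the BC XX lines and 8.74, 0 and 5.35 in the BC XY lines, a difference of 2.22 (SE 0.588). Sp110, a gene for a nuclear body protein, had 82.1, 26.5 and 22.6 against 12.5, 4.99 and 10.7, a difference of 1.60 (SE 0.432). In both genes the BC XX and BC XY lines did not overlap, and BC XX 1 was well above the other 2 BC XX lines. Gm2022 had 92.8, 21.6 and 17.7 against 0, 4.16 and 9.37, a difference of 2.16 (SE 0.517). BC080695 had 58.9, 8.96 and 9.82 against 0, 0 and 2.68, a difference of 2.04 (SE 0.532). Gm5662 had 38.7, 11.4 and 10.8 against 0, 1.66 and 4.02, a difference of 1.75 (SE 0.391). Each of these 8 genes thus had its highest value in BC XX 1, and BC XX 2 and BC XX 3 lay close to each other. Some CB XX lines came up to that lower level. Gm2022 had 20.7 in CB XX 2, above BC XX 3, and BC080695 had 12.2 there, above BC XX 2 and BC XX 3. Sp110 had 21.3 in CB XX 3, just below BC XX 3. For Tmem92 and Gm5662, all lines outside BC XX lay below the lowest BC XX value.

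The other 7 were Gm8300, with a difference of 1.54, AA792892, with 1.09, Arg2, Ddit4l, Usp17le, Usp17la and Rfpl4. Arg2, an arginase, and Ddit4l, an inhibitor of mTOR signalling, were highest in BC XX 2, at 66.4 and 372 scaled reads. Usp17la, a deubiquitinase gene, was highest in CB XX 3 and Rfpl4, a gene of oocytes and early embryos, in CB XY 1, with differences of -0.01 and -0.08. The list therefore did not follow 1 pattern. The count of 8 also rested on few lines: without BC XX 1, 2 of 14 genes passed, Gm5662 and Zscan4a. Without BC XX 2 there were 6 calls, and without BC XX 3 there were 3. Leaving out BC XY 1, BC XY 2 or BC XY 3 gave 2, 0 and 5 calls. A fit without the lines labelled CB XY 2 and 3 called 5, and a fit on the BC XX and BC XY lines alone called 0.

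**Figure D3:**
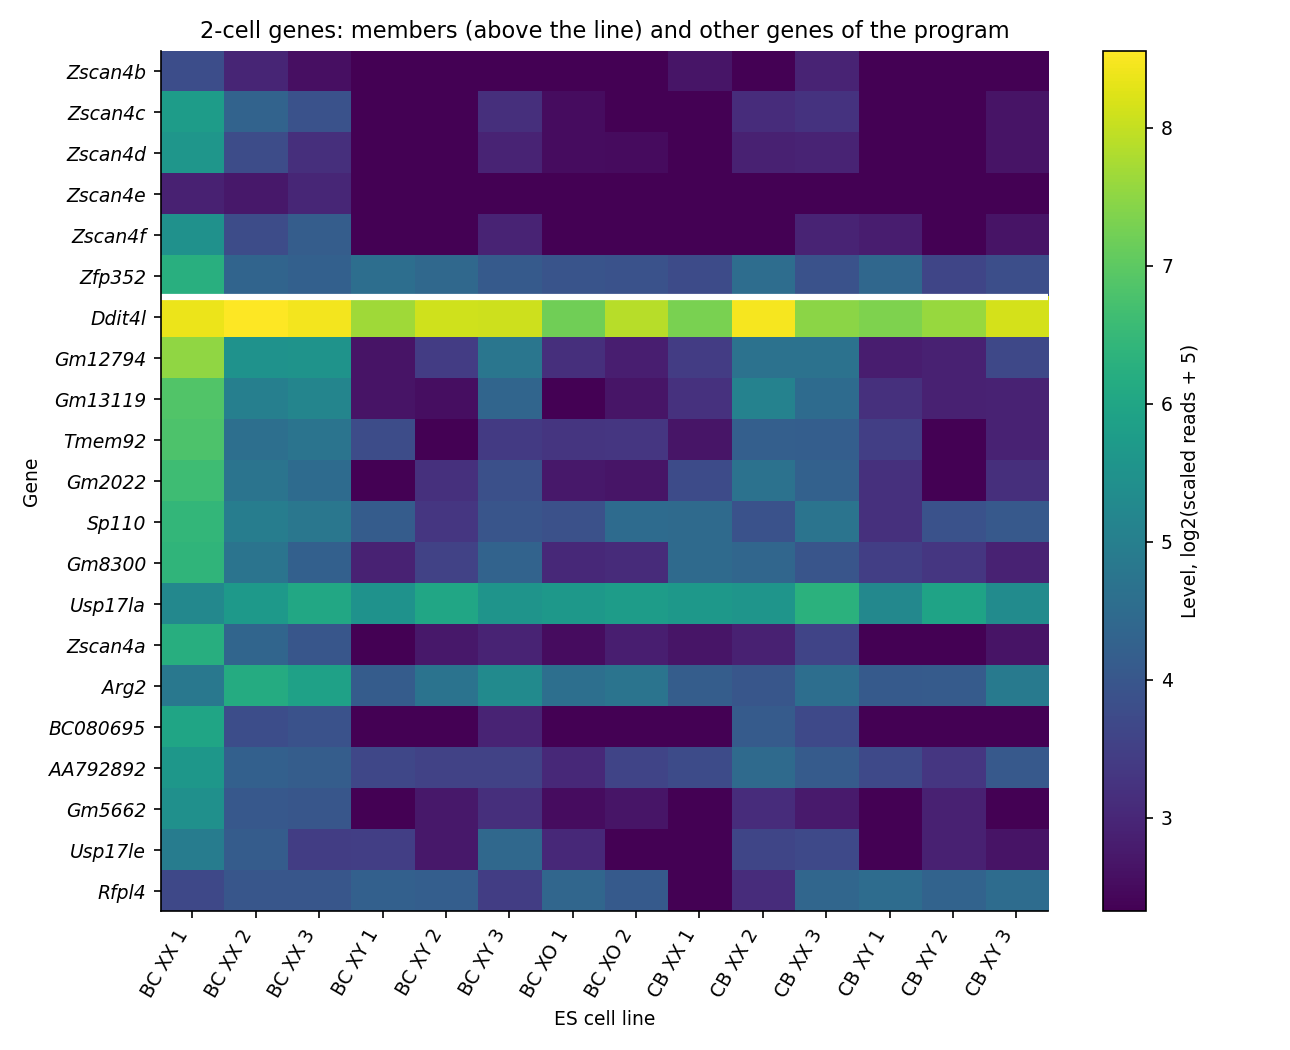
Colours give log2(scaled reads + 5) for 21 genes in rows and the 14 lines in columns, with the 6 genes that had reads above the white line and the 15 other 2-cell genes below it. The column of BC XX 1 is brightest for most genes, while Ddit4l and Arg2 peak in BC XX 2, Usp17la in CB XX 3 and Rfpl4 in CB XY 1.

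The line in which each gene was highest was counted as a description. Of the 30 other 2-cell genes with reads, 23 (76.7%) had their highest value in BC XX 1, and among the 15 tested it was 11 (73.3%). Over all genes tested, BC XX 1 was the highest line for 530 of 16261 (3.26%). The genes were read in the same 1 library, so they are not separate observations of that line.

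In the CB cross the other 2-cell genes had smaller differences. None of the 15 passed the test in limma, where 3.57% of all genes were called, so that little is read from 0 of 15. The spread in this fit includes the BC XX lines, and Zscan4a and Gm5662 entered it through BC XX lines only. This limits what the adjusted p values of these genes can show. Of the 15 genes, 13 had a higher mean in CB XX than in CB XY, and the median difference was 0.63 against -0.022 for all genes. The largest were Gm2022 at 1.35 (adjusted p = 0.179), Gm13119 at 1.27 (adjusted p = 0.254) and Gm12794 at 1.13 (adjusted p = 0.328). Rfpl4 was lower by 1.18 (adjusted p = 0.141). Without CB XX 3, Rfpl4 alone passed. A fit on the CB XX and CB XY lines alone tested 11 of the genes and called none. Without the lines labelled CB XY 2 and 3, 14 of 15 genes had a higher mean in CB XX, with a median of 0.74 against -0.033 for all genes and again no call, and Gm2022 differed by 1.06 (adjusted p = 0.597), Gm13119 by 1.10 (adjusted p = 0.649), Gm12794 by 1.45 (adjusted p = 0.523) and Rfpl4 by -1.26 (adjusted p = 0.429). The test of the difference between the crosses called none of the 15, with a median of -0.98 and a background of 0.0738% (12 genes), although 1471 of all genes had an unadjusted p under 0.05. It also called none of them without the lines labelled CB XY 2 and 3 or without any single XX or XY line. The BC XX lines enter this contrast, so its values for these genes are a description. Whether the 2 crosses differed was not decided by it.

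BC XO against BC XY gave a median of -0.21 with 5 of 15 genes higher in XO, and CB XY against BC XY a median of -0.23 with 2 of 15 higher in CB XY, or of -0.34 with 4 of 15 without the lines labelled CB XY 2 and 3. None of the 15 genes passed in either comparison, where 0.00615% and 0.640% of all genes were called, so that nothing is read from 0 of 15. Zscan4a and Gm5662 entered both comparisons through BC XX lines only, and those lines are part of the spread in the fit. BC XY 3 held the highest of the BC XY values for Zscan4c, Zscan4d, Zscan4f, Zscan4a, Gm12794, Gm13119, Gm2022, BC080695 and Gm5662. For Zscan4c, Zscan4d and Zscan4f this rests on 6, 4 and 4 reads. Other genes went another way. Tmem92, Sp110, AA792892 and Rfpl4 were highest in BC XY 1, Usp17la and Ddit4l in BC XY 2, and Zfp352 was lowest in BC XY 3.

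Over both crosses, with 6 XX and 6 XY lines, 9 of the other 2-cell genes entered a stricter test of 15311 genes (at least 10 scaled reads in at least 6 lines). Of these 9, 8 had a higher mean in XX lines, with a median of 0.76 against -0.028 for all genes. As the BC XX lines enter, these values are a description as well. The 1 gene of the 9 past the threshold was Gm13119, higher by 1.89 (SE 0.486), while 5.21% of all genes were called and 3.21% were called higher. With the cross as a covariate 4 passed, Gm12794, Gm13119, Gm8300 and Sp110, and 1697 genes in all against 797. The number ranged from 0 to 5 when single lines were left out, Gm13119 itself passing without BC XY 3 or without CB XX 1 only, and it was 0 of 11 without the lines labelled CB XY 2 and 3. Within the crosses Gm13119 differed by 2.50 in BC and 1.27 in CB. Of the 8 genes first named, Zfp352 alone reached the level for this test, with a difference of 0.34 given as a description.

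**Figure D4:**
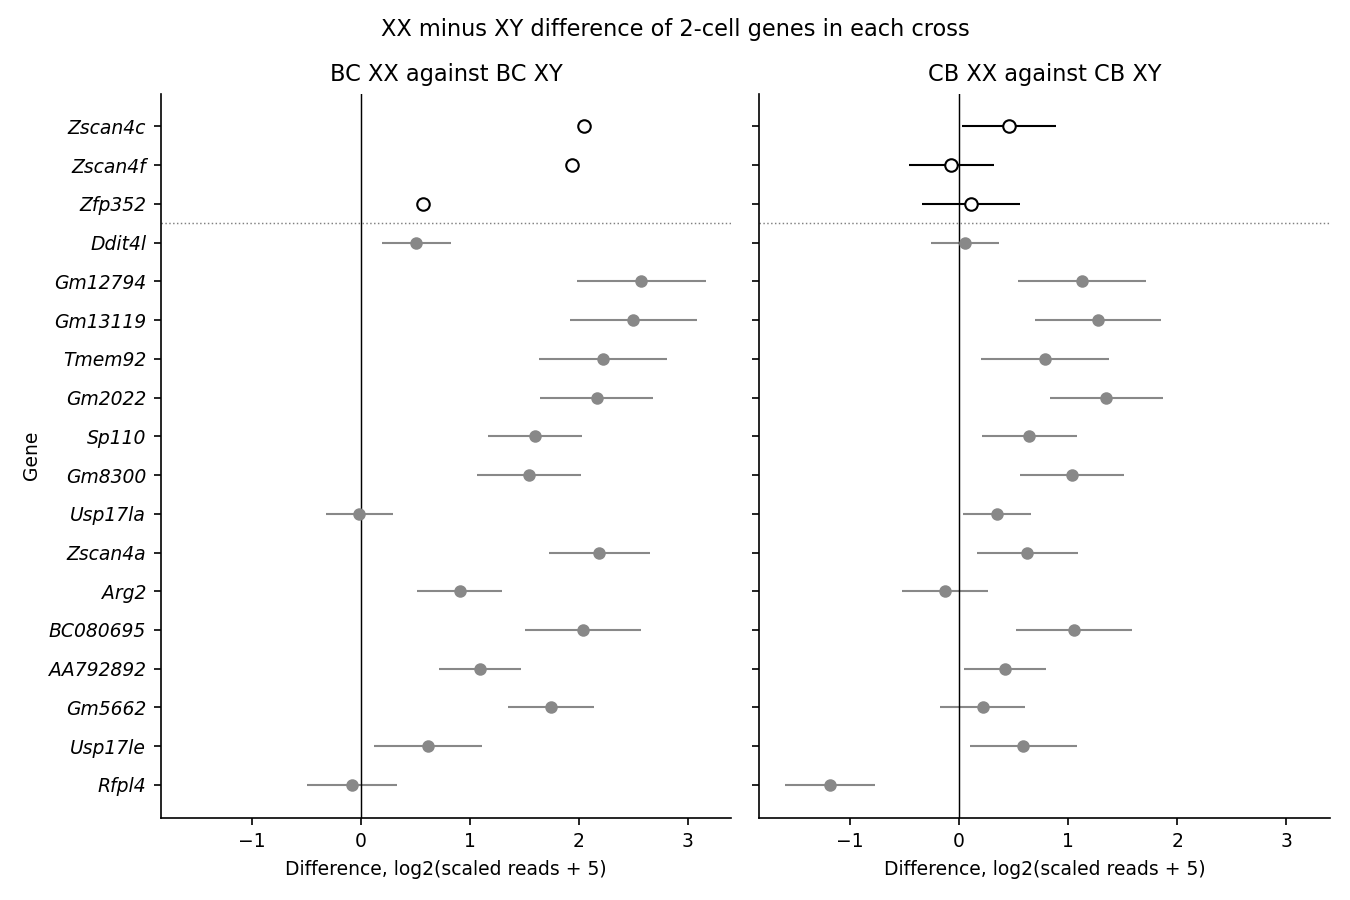
Points give the XX minus XY difference on the log2(scaled reads + 5) scale for 18 genes, with the BC cross on the left and the CB cross on the right. Bars are SEs, and open points are Zscan4c, Zscan4f and Zfp352, shown without SE in BC, where they were chosen. In BC, 8 of the filled points lie between 1.60 and 2.57, and in CB 13 of the 15 lie above 0 with none called.

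Genes known to switch the program on gave no call. Of 6 listed, 5 were in the table and all 5 were tested, with 0 called in any of the 6 comparisons, where 0.00615% to 5.70% of all genes were called, so that little is read from 0 of 5. Dux, the transcription factor at the top of the program, had 37.5, 6.11 and 2.95 scaled reads in BC XX 1 to 3, 0, 4.16 and 9.37 in the BC XY lines and 2.39 and 5.69 in the BC XO lines. It had 11.4, 17.1 and 12.4 in the CB XX lines and 2.02, 2.46 and 2.60 in the CB XY lines. BC XX 1 was the highest line, but BC XX 2 and BC XX 3 lay within the BC XY lines, and the difference in BC was 0.84 (SE 0.515, adjusted p = 0.356). In CB the groups did not overlap, but each CB XY value was below the worth of 3 reads. The difference in limma was 1.33 (SE 0.515, adjusted p = 0.183), or 1.40 without the lines labelled CB XY 2 and 3. By listed value, the CB XX lines had more Dux than BC XX 2 and BC XX 3 but a lower Zscan4 sum. The Dux value of BC XX 3, 2.95, was at the worth of 3 reads. Counting intervals were not computed for Dux, and how many of its reads have several places in the genome was not examined. The order of these lines by Dux is therefore uncertain, and its part in the Zscan4 levels was not tested. Dppa2 and Dppa4, which act upstream of Dux, were abundant in every line, at 1586 to 4108 and 2345 to 4164 scaled reads. Nelfa, a subunit of the negative elongation factor, was lower by 0.62 in BC XX, which missed the threshold (adjusted p = 0.0667).

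Among 27 repressors of the program the median difference was -0.16 between BC XX and BC XY and 0.01 between CB XX and CB XY. Without the lines labelled CB XY 2 and 3 the latter was -0.1. Rnf2, the ubiquitin ligase of Polycomb repressive complex 1, gave the only calls. It was 1 of 27 in CB XX against CB XY and in CB XY against BC XY, where 3.57% and 0.640% of all genes were called. Little is thus read from it about the repressors as a list. Rnf2 had 4376, 4050 and 3746 scaled reads in the CB XX lines and 2254, 2567 and 2797 in the CB XY lines, a rise of 0.68 (SE 0.147, adjusted p = 0.0223 in limma). The BC XY lines had 4182, 3657 and 4768, so that CB XY fell below them by 0.72 (SE 0.147, adjusted p = 0.0402). The low group was thus CB XY. Without the lines labelled CB XY 2 and 3 the differences were 0.84 (adjusted p = 0.110) and -0.89 (adjusted p = 0.257), and both calls were lost. The call between CB XY and BC XY was also lost without any single line of the 6 (adjusted p = 0.0862 to 0.150) and with no filter on low values (0.0582). The call between CB XX and CB XY was lost without CB XX 1, CB XX 2, CB XY 1 or CB XY 2 (adjusted p up to 0.0988). It was also lost with only those groups fitted (adjusted p = 0.0674).

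A list of 12 genes of telomeres and meiotic recombination was read because of the known action of Zscan4, and 11 of them were tested. Smc1b, a cohesin subunit of meiotic chromosomes, gave all the calls. It was the 1 called of 11 in BC, in CB and over both crosses, where 5.70%, 3.57% and 5.21% of all genes were called. It had 794, 820 and 500 scaled reads in the BC XX lines, 86.2, 179 and 467 in the BC XY lines and 127 and 90.3 in the BC XO lines. It had 1325, 1301 and 1063 in the CB XX lines and 94.9, 224 and 299 in the CB XY lines. Every XX line lay above every XY and XO line. Smc1b rose by 1.80 in BC XX (SE 0.493, adjusted p = 0.0470), by 2.69 in CB XX (SE 0.493, adjusted p = 0.0105) and by 2.24 over both crosses (SE 0.379, adjusted p = 0.00443). Without the lines labelled CB XY 2 and 3 the difference in CB was 3.62 (adjusted p = 0.0281). The call over both crosses held in all 21 alternatives (adjusted p = 0.00286 to 0.0139), that in CB was lost without CB XX 2 or CB XY 1 (adjusted p = 0.0529 and 0.0549), and that in BC was lost without any 1 of the 3 BC XX lines, BC XY 1 or BC XY 2 (adjusted p up to 0.149). The call in BC was also lost with a pseudocount of 1 (adjusted p = 0.0510), with no filter on low values (0.0797), with only the BC XX and BC XY lines fitted (0.0959) and with the replicate number as a block (0.0596). In contrast to the Zscan4 genes, Smc1b was higher in the CB XX lines than in the BC XX lines, and BC XX 1 did not lead. Tert, the catalytic subunit of telomerase, lay between 155 and 452 in all lines and was not called.

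The 10 genes whose pattern over the 14 lines was most like the mean of Zscan4c, Zscan4f and Zfp352 were Zscan4a (Pearson r = 0.962), Gm10696 (0.96), Gm5662 (0.948), Gm13078 (0.939), Tmem92 (0.93), Gm12794 (0.923), BC080695 (0.923), Gm2022 (0.888), Gm5039 (0.886) and Nell1 (0.884). Of these, 6 were on the list of other 2-cell genes. For Zscan4c and Zscan4f, 81.4% and 95.1% of 50-base windows were also found outside the 6 genes with reads. Reads may thus be shared with Zscan4a, of the same family, and the part of this in its r was not tested. All 10 were highest in BC XX 1, and the points share libraries and low counts, so r is a description. Without BC XX 1 the same genes had r between 0.639, for Nell1, and 0.927, for Gm10696. The choice depended on the measure, as none of the 10 was among the 10 nearest by Spearman's rho or without BC XX 1.

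Other cell types in the cultures moved with the groups. The 20 markers of feeder fibroblasts summed to 127951 to 287483 scaled reads in the BC XX lines and to 53521 to 98846 in all other lines. All 20 had a higher mean in BC XX than in BC XY, with a median difference of 2.19. Of them 14 were called, where 4.46% of all genes were called higher. In CB XX against CB XY none was called, where 3.57% of all genes were. Their mean log2 level was 10.50, 11.20 and 11.62 in BC XX 1 to 3, so that BC XX 1, the highest line for 2-cell genes, was the lowest of the 3 for feeder markers. It was 9.39, 8.73 and 8.27 in the BC XY lines, 8.80, 10.17 and 9.88 in the CB XX lines and 9.65, 8.47 and 9.90 in the CB XY lines. Across groups, the 3 BC XX lines lay above all other lines both by this mean and by the Zscan4 sum. Within groups, the line with the most Zscan4 reads was lowest by this mean in BC XX and BC XY and intermediate in CB XX. In BC XY that order rests on 0, 0 and 14 Zscan4 reads. The BC XO lines held 2 and 1 Zscan4 reads and the CB XY lines 1, 0 and 3, too few to order them. Summed RNA of 4 Y-linked genes was 533 to 1659 in the BC XX lines and 82.4 to 331 in the CB XX lines. The part of feeder RNA in the differences between BC XX and BC XY was not tested.

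The 10 oocyte markers, some of whose transcripts are known to persist from the egg into the 2-cell embryo, summed to 84.5 to 156 scaled reads in all lines. In BC and in CB 0 of the 5 tested were called, where 5.70% and 3.57% of all genes were, so that nothing is read from 0 of 5. Oosp1, specific to oocytes, was listed at 0 in 13 lines. Markers of primitive endoderm summed to 19653 to 25837 in BC XX and 15564 to 22093 in BC XY, and those of trophoblast to 7223 to 11292 and 11048 to 15784.

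**Figure D5:**
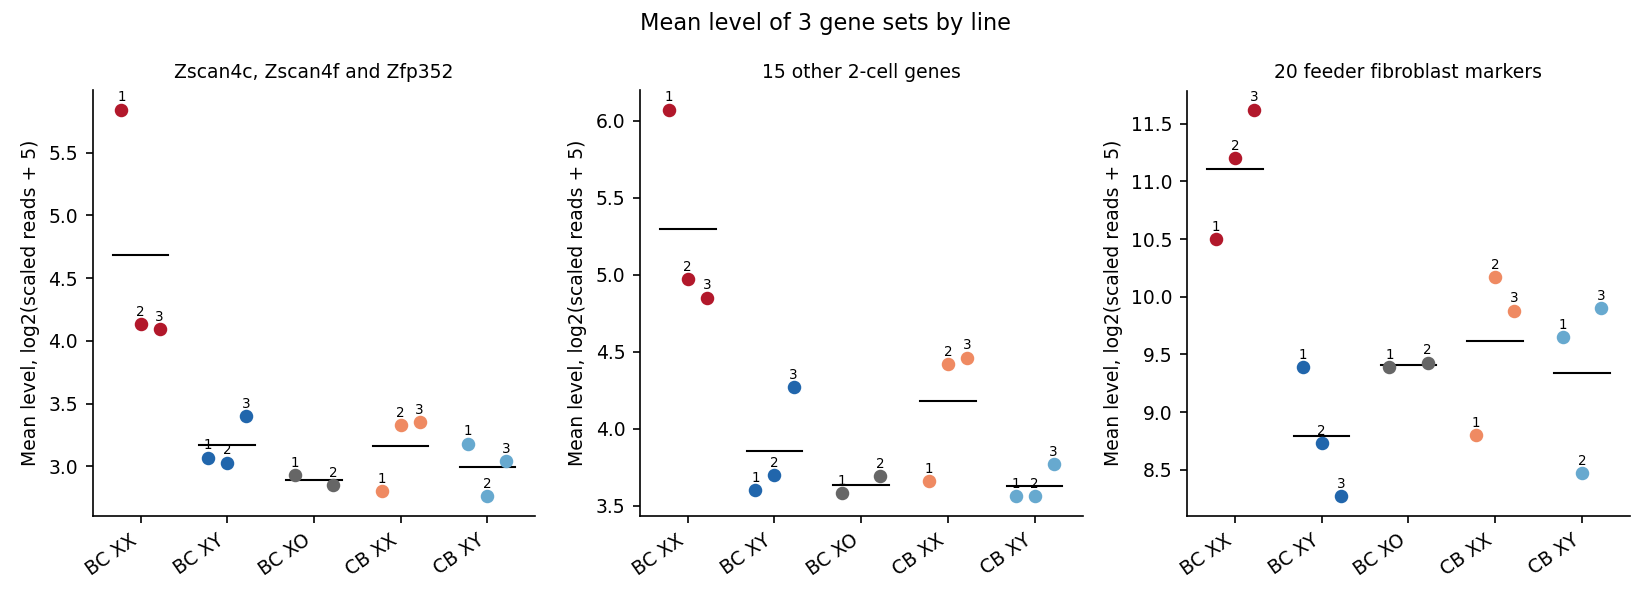
Panels give the mean log2(scaled reads + 5) in each line for Zscan4c, Zscan4f and Zfp352, for the 15 other 2-cell genes and for the 20 feeder markers, with numbered points for lines and bars for group means. The y axes differ and do not start at 0. BC XX 1 is the highest point in both 2-cell panels, at 5.84 and 6.07, and the lowest BC XX point in the feeder panel, at 10.50.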

How the data were processed

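RNA of 14 ES cell lines was sequenced as strand-specific total RNA after removal of ribosomal RNA. Reads were aligned to mm9 with TopHat2 and processed with Cuffdiff, per the labels; versions are not given in the sources used here. The deposited values are a signal: reads per gene that the authors scaled to a common depth. From 98.4 to 98.8% of low values per line were whole multiples of 1 step (within 0.1 of a step), and that step was taken as 1 read. The lines are independent, as blastocysts were cultured singly.

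Groups were compared with limma 3.58.1 in R 4.3.3 (trend, log2(value + 5), Benjamini-Hochberg over all genes, threshold 0.05). A model of 5 group means over 14 lines used genes with at least 10 in at least 2 lines, and XX against XY used 12 lines and at least 10 in at least 6 lines. Genes at 0 in every line of a group but at 100 or more in another were not tested (15 genes). The model was tested on simulated data. Sequences were aligned with MAFFT 7.526 and read with Python 3.11.15.

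The genes and lists were chosen with earlier results of these data known. Named are the 8 genes, listed genes called in a comparison, the 10 genes nearest by Pearson r, and check genes. Genes singled out beyond these were chosen after their values were seen. Alternatives were other pseudocounts, filters, scalings and samples.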

Additional observations from a re-analysis of the deposited data

Results flagged for a closer look

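In groups of 6 lines, the gap of the most extreme line to its neighbour, as a share of the range, passed Dixon's 95% limit of 0.625 in 4 of 32 groups tested, where chance gives about 1 in 20. Among the 6 XX lines, BC XX 1 had the widest gap for Zfp352 (0.687) and Gm2022 (0.659); 2-cell genes had been chosen for being high in that line, so these are a description and no test. Among the 6 XY lines, BC XY 3 stood apart for Gm10696 (0.625) and for BC080695 (1.0), of which it was the only XY line with reads.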

How the results depend on the processing

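The values are low and few, so that counts of called genes moved with the lines used more than with scaling. Other scalings (TMM factors and median-ratio size factors) changed no call among the named genes. Over all alternatives, 253 values of named genes or levels kept their direction and side of the threshold, 84 lost their call and 13 changed sign or came to 0, all 13 in genes that were not called. Without the lines labelled CB XY 2 and 3, genes called were 133 in CB XX against CB XY (Zfp352 -0.342), 2 in CB XY against BC XY (Zfp352 0.038), 313 in XX against XY and 2 in the test between crosses, and other 2-cell genes called were 5 in BC XX against BC XY and 0 in XX against XY. With only the compared groups in the fit, genes called were 152 in CB XX against CB XY, 4 in BC XO against BC XY and 382 in CB XY against BC XY, and 0 other 2-cell genes were called in BC XX against BC XY. With a pseudocount of 20, 0 genes were called in BC XO against BC XY, 21 in the test between crosses, and 0 other 2-cell genes in XX against XY. With a minimum of 50, 0 genes were called in BC XO against BC XY, 7 in the test between crosses, and 0 other 2-cell genes in both BC XX against BC XY and XX against XY, as only 3 of them were tested in BC XX. With no filter on low values, 10 genes were called in CB XY against BC XY and 4 in the test between crosses. With genes at 0 in a whole group kept, which was chosen after seeing the data, 5 genes were called in BC XO against BC XY and 25 in the test between crosses. The alternatives for the test between crosses were also added after seeing the data. With the cross as a covariate, XX against XY called 1697 genes, 4 of them other 2-cell genes. Of the 10 most similar genes, 0 were shared under Spearman's rho, 4 with a pseudocount of 1 and 0 without BC XX 1.

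Leaving out single lines gave 145 to 653 genes called in CB XX against CB XY (0 to 1 other 2-cell genes), 0 to 1 in BC XO against BC XY, 2 to 8 in CB XY against BC XY, against 104 with all lines, 229 to 992 in BC XX against BC XY (0 to 6 other 2-cell genes), 410 to 1746 in XX against XY (0 to 5) and 0 to 25 between crosses. Differences of single genes crossed or came to 0 there: Zfp352 (-0.128 to 0.339) and Zscan4f (-0.274 to 0.039) in CB XX against CB XY, Zscan4c (-0.319 to 0.107) and Zscan4f (-0.309 to 0) in BC XO against BC XY, and Zscan4c (-0.314 to 0.111) and Zscan4f (-0.04 to 0.274) in CB XY against BC XY. The cause was not tested in any of these cases, apart from the fewer genes or lines that some settings leave.

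Replicate numbers did not pair the lines: the correlations of same-numbered lines ran from -0.494 to 0.27. A fit with the replicate number as a block, without the CB XX lines, whose columns carry no matching numbers, called 368 genes in CB XY against BC XY, 1129 in BC XX against BC XY with 6 other 2-cell genes, and 1 in BC XO against BC XY. No paired analysis was possible because of those missing numbers for CB XX against CB XY and for XX against XY. Tests on counts were not run, as the values are scaled reads. The levels of the Zscan4 copies rest on 83 reads or fewer per line, and differences under a few reads were not detectable.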
